A study of Mus musculus with 2 samples.

Results

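Matrix metalloproteinases (Mmps) and their tissue inhibitors (Timps) were followed in residual mouse pancreatic tumors after electroporation. The 10 genes described are Mmp2, Mmp3, Mmp9, Mmp12, Mmp13, Mmp14, Mmp19, Timp1, Timp2 and Timp3. They were taken by gene symbol from the 32285 genes of the count matrix, which lists 26 Mmp and Timp genes in all. Each symbol named 1 row. Single cells were sequenced in 2 libraries, 1 from iIRE tumors and 1 from control tumors. iIRE stands for insufficient irreversible electroporation, in which strong electric pulses open the membranes of tumor cells but leave part of the tumor alive. KPC cells, a mouse pancreatic cancer line, were implanted into the tail of the pancreas of male C57BL/6 mice bought at 5 to 7 weeks of age. At a tumor size of 7 to 9 mm, on days 9 to 10 after implantation, iIRE tumors received 99 pulses between needles set 5 mm apart. Control tumors carried the same cells in the same host but received no pulses, and the sources differ on whether they had a sham needle insertion or no treatment. Tumors were collected 3 days later. The tumor cells are of 1 line, the sources used here do not say how many mice each library pools, and with 1 library per group no test between the groups was possible. A difference between the libraries cannot be told apart from a difference between mice, dissections or library preparations.

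Mmps are zinc-dependent enzymes that cut collagens, elastin and other matrix proteins, and also release growth factors and chemokines. Most are secreted as inactive proenzymes, whereas Mmp14 sits in the cell membrane and activates proMmp2 on the cell surface with the help of Timp2. Timps bind the active site of the enzymes and block it. In pancreatic tumors, which are rich in collagen and in macrophages, these genes are known mostly from fibroblasts, myeloid cells and invasive cancer cells.

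Mmp13, Mmp12 and Mmp3 lie in this order within a cluster of Mmp genes on mouse chromosome 9. On the mm10 build these protein-coding genes span chr9:7272514-7283331, chr9:7344381-7369499 and chr9:7445822-7455975, all on the plus strand. The last part of Mmp12 overlaps Mmp1b, on the minus strand at chr9:7368239-7388047, although only 16 UMIs were counted for Mmp1b in all cells. The other members are spread over the genome: Mmp9 at chr2:164940780-164955850, Timp1 at chrX:20870166-20874735, Mmp14 at chr14:54431612-54445364, Mmp19 at chr10:128790910-128800824, Timp3 at chr10:86300372-86349506, Timp2 at chr11:118301069-118355740 and Mmp2 at chr8:92827291-92853420. Promoter sequences were available for 7 of the 10 members in RefSeq (build GRCm38.p6, 250 bases before to 50 after each start). They are shown for these neighbors because all 3 carry the binding motif of AP-1, the Fos and Jun factors whose own transcripts are described further on. The motif was searched as TGAGTCA or TGACTCA, which are the same site read on either strand. It occurs in 1709 of 32851 promoters of this length (5.20%), in 6 of the 21 Mmp and Timp genes with an entry, and in no window of Mmp14, Timp1, Timp2 or Timp3. Each sequence runs from 110 bases before to 20 after a start, with the motif in capitals. Its first base lies 46, 44 and 35 bases before the start in Mmp3, Mmp12 and Mmp13. For Mmp12 the window belongs to the second annotated start, at which the motif is present, and not to the first, at which it is absent. A match is a stretch of letters and not a measured binding site.
Mmp3 (chr9:7445712-7445841, plus strand): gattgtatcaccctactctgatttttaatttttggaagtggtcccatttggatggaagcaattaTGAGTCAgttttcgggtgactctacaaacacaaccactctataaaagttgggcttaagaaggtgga
Mmp12 second start (chr9:7347264-7347393, plus strand): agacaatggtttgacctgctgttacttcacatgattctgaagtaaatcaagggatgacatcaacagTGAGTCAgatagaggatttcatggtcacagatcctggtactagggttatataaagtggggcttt
Mmp13 (chr9:7272404-7272533, plus strand): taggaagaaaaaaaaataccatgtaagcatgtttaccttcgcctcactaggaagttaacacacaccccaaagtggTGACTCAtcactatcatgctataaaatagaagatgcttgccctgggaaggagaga

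The iIRE library held 19433 barcodes with 222153118 UMIs and the control library 18538 barcodes with 247105192 UMIs, where a UMI is a tag that marks 1 captured RNA molecule. After filtering and removal of likely doublets, 15991 iIRE and 15274 control cells remained, with median depths of 6424 and 7999 UMIs per cell. The libraries shared 458 barcode sequences, which were kept as separate cells. Cells were clustered without the Mmp, Timp and related protease genes, so that none of the 10 members shaped the classes, and classes were named from their markers. Cells without a class, in 18 clusters, made up 7652 of the iIRE and 6864 of the control cells, and several of these clusters came almost wholly from 1 library. Levels are given as CPM, the UMIs of a gene summed over the cells of a class per 1000000 UMIs of these cells. Intervals are exact 95% intervals; they cover counting error only and leave out the spread between cells and between mice. Genes counted at least 50 times in both libraries together were compared, and a difference was counted when the levels were at least 1.2-fold apart.

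The family was divided among cell classes, and several enzymes had a main source of their own. Over both libraries, osteoclast-like cells held 79.5% of all Mmp9 UMIs, macrophage/monocyte-like cells held 83.8% of those of Mmp12, and fibroblast-like cells held 68.1% of those of Mmp2. Mmp14, Timp1, Timp2 and Timp3 were instead found in most cancer-like cells. Mmp3, Mmp13 and Mmp19 were low throughout, with no class above 94.8 CPM. The levels of all members in each class and library are drawn in the heatmap of CPM.

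**Figure D1:**
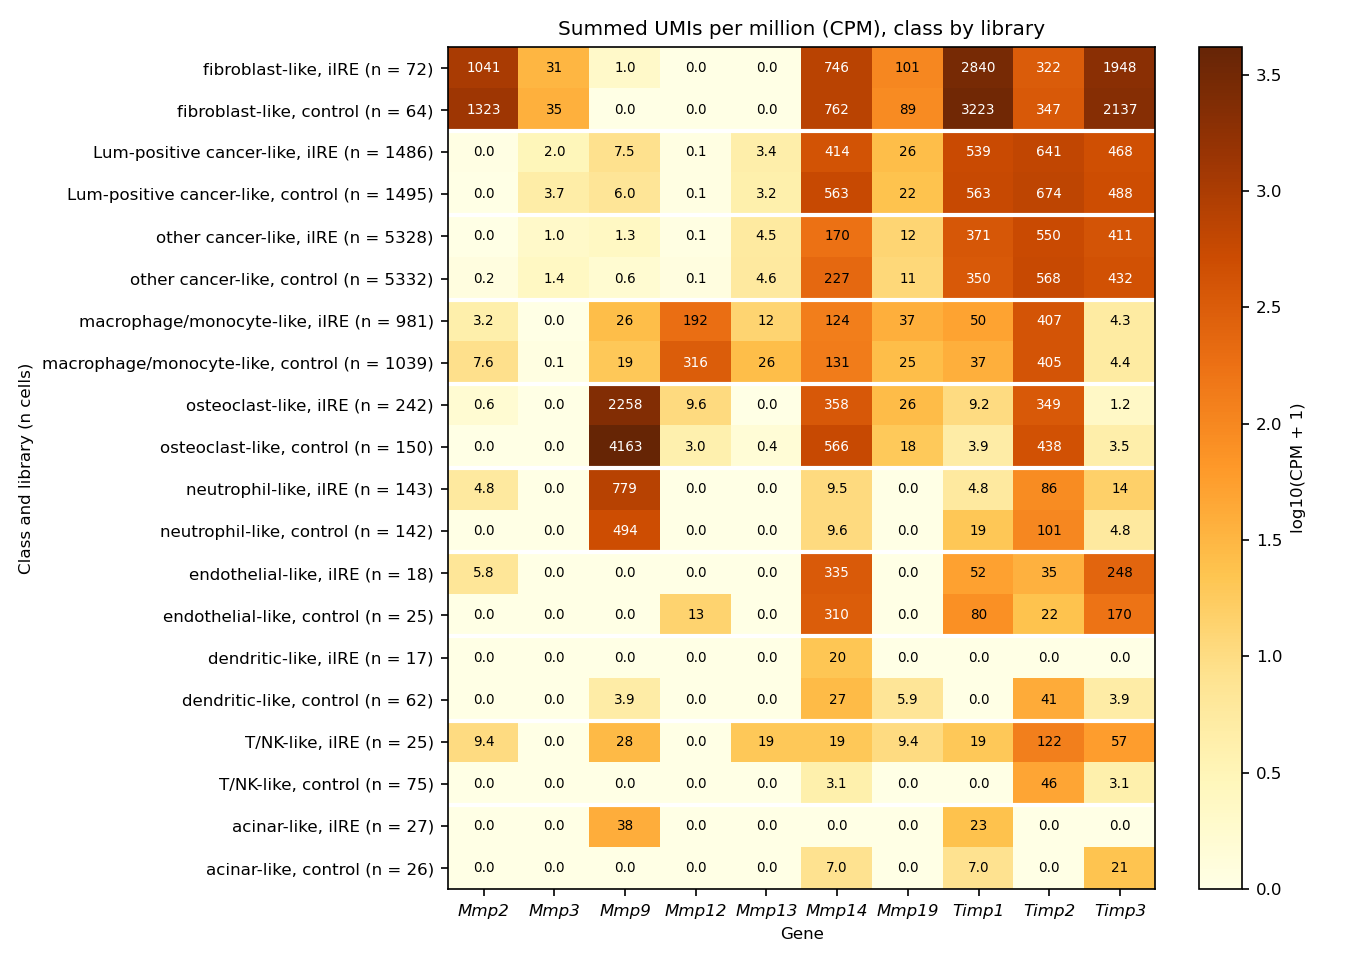
Summed UMIs per 1000000 UMIs (CPM) of the 10 genes (columns) in each class and library (rows, with the number of cells), iIRE above control for each class; the color is log10(CPM + 1) and the printed numbers are CPM. Mmp9 stands out in osteoclast-like and neutrophil-like cells, Mmp12 in macrophage/monocyte-like cells and Mmp2, Timp1 and Timp3 in fibroblast-like cells.

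The osteoclast-like cells were a cluster of 242 iIRE and 150 control cells (1.51% and 0.982% of the cells of each library) of deep coverage, with median depths of 12808.5 and 15370.5 UMIs. They were named for Ctsk and Acp5, a collagen-cutting protease and a phosphatase of bone-resorbing cells, together with Atp6v0d2, Ocstamp and Oscar. Their Y-linked transcripts, at 90.7 CPM against 0.184 CPM in cancer-like cells, stood near those of fibroblast-like cells (122 CPM) and marked them as host cells, since the mice were male. Mmp9, a secreted gelatinase that osteoclasts and neutrophils are known to make in quantity, reached its highest level here, at 3051 CPM over both libraries. It stood above the level in neutrophil-like cells in both libraries. Mmp9 was lower in iIRE than in control osteoclast-like cells.

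Mmp9 stood at 2258 CPM (2207 to 2311) in iIRE osteoclast-like cells and at 4163 CPM (4080 to 4247) in control osteoclast-like cells, a log2 ratio of -0.88 (-0.93 to -0.84). The gene was found in 58.7% of the iIRE cells and in 69.3% of the control cells, and in 42.7% and 55.7% after each cell was thinned to 2000 UMIs. Among cancer-like cells, which had median depths of 17646 and 20222 UMIs, the unthinned shares were 2.26% in iIRE and 2.43% in control. Within the class the cells ranged widely. The median cell had 1.36 Mmp9 UMIs per 10000 in iIRE and 11.5 in control, the upper quartile was 24.1 and 81.3, and the most extreme cell held 244 and 369 UMIs. The lower sum in iIRE was therefore present both in the share of cells with the gene and along the upper part of the distribution.

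Of the 4 members compared in osteoclast-like cells, 3 were lower in iIRE past 1.2-fold (Mmp9, Mmp14 and Timp2) and 1 was higher (Mmp19). Of all 8035 genes compared in this class, 17.1% were lower and 23.8% were higher by the same rule, and the median log2 ratio was -0.49 for the members and 0.04 for all genes. Mmp14, the membrane-bound activator, stood at 358 CPM in iIRE and 566 CPM in control (log2 ratio -0.66, -0.77 to -0.54). Timp2 stood at 349 CPM in iIRE and 438 CPM in control (-0.33, -0.45 to -0.20). Mmp19, an enzyme of basement membrane substrates, was counted only 85 and 41 times, and its interval (0.01 to 1.14) nearly reached 0. Of the members under the minimum for a comparison, Mmp12 (31 UMIs in iIRE and 7 in control) and Timp1 (30 and 9) were higher in iIRE. Timp3 (4 and 8) was lower, and Mmp2, Mmp3 and Mmp13 had 2 UMIs or fewer. The cells of this class also differed in other respects. Of 11 osteoclast markers compared, 10 were lower in iIRE past 1.2-fold and none was higher, with a summed level of 11096 CPM in iIRE and 18838 CPM in control. Ctsk had a log2 ratio of -0.87 and Oscar one of -1.62, whereas Nfatc1, the master factor of osteoclast formation, had one of -0.10. Of 8 markers of dividing cells, 5 were higher and none was lower, and of 12 macrophage markers 6 were higher and 3 were lower. Whether these shifts in the makeup of the class play a part in the lower Mmp9 was not tested.

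Neutrophil-like cells, 143 in iIRE and 142 in control, had the second highest level of Mmp9 among the named classes. Neutrophils are known to store Mmp9 in granules. In the neutrophil-like cells the difference ran the other way. Mmp9 stood at 779 CPM (664 to 908) in iIRE and 494 CPM (403 to 599) in control, with 164 and 103 UMIs and a log2 ratio of 0.66 (0.29 to 1.03). The gene was found in 54.5% and 40.1% of the cells at nearly equal median depths of 1320 and 1324.5 UMIs, and in 38.5% and 33.8% after thinning to 1000 UMIs, a depth chosen after seeing the data. Only 13 iIRE and 11 control cells reached 2000. Mmp8, the neutrophil collagenase, stood at 190 CPM in iIRE and 33.5 CPM in control, from 40 and 7 UMIs, under the minimum for a comparison. Of the other members Timp2 alone passed 50 CPM, and Mmp3, Mmp12, Mmp13 and Mmp19 had no UMI in 285 cells. The exact interval of such a count over both libraries reaches 8.80 CPM.

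Mmp9 was also counted in cells without a class, at 28.3 CPM in iIRE and 50.01 CPM in control and in 11.6% and 19.3% of these cells. Some of their clusters had osteoclast genes such as Ctsk and Atp6v0d2 among their leading genes and came almost wholly from 1 library. Cluster 14, with 9 iIRE and 413 control cells, had 157 CPM of Mmp9 in control, and cluster 32, with 42 iIRE and no control cells, had 343 CPM. These levels lay far below those of the osteoclast-like cells, and such cells were left out of the comparison above. Cluster 9, led by the granule genes Ngp, Camp and Ltf of immature neutrophils, had 81 iIRE and 724 control cells and 29.6 and 59.6 CPM of Mmp9. Cells without a class also carried the tumor marker Cdkn2a, at 1020 CPM over all of them. In clusters 14, 32 and 9 it stood at 1013, 932 and 1044 CPM. Cancer-like cells had 1414 CPM, osteoclast-like cells 8.46 CPM and neutrophil-like cells 31.0 CPM of Cdkn2a. The Mmp9 of these clusters could thus not be assigned to 1 cell type.

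The macrophage/monocyte-like cells numbered 981 in iIRE and 1039 in control, with median depths of 5896 and 6705 UMIs. Of the 9 members compared in them, 3 were higher in iIRE past 1.2-fold (Mmp9, Mmp19 and Timp1) and 3 were lower (Mmp2, Mmp12 and Mmp13). Of all 9877 genes compared, 16.7% were higher and 10.9% were lower, and the median log2 ratio was -0.03 for the members and 0.04 for all genes. Timp2 and Mmp14 differed little as class sums, although not in every subset.

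Mmp12, the macrophage elastase, was lower in iIRE. It stood at 192 CPM (182 to 203) in iIRE and 316 CPM (304 to 329) in control, a log2 ratio of -0.72 (-0.82 to -0.62). It was found in 11.5% of iIRE and 16.5% of control cells, and in 8.17% and 12.6% after thinning to 2000 UMIs, against 0.117% and 0.176% of cancer-like cells without thinning. A few cells carried much of it: the top 1% of cells held 39.9% of the UMIs in iIRE and 43.4% in control.

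Mmp13, a collagenase that cuts fibrillar collagen, stood at 12.2 CPM in iIRE and 25.7 CPM in control (76 and 192 UMIs; log2 ratio -1.08, -1.48 to -0.69). Mmp2, the gelatinase of mesenchymal cells, was rarer still at 3.20 CPM in iIRE and 7.63 CPM in control (20 and 57 UMIs; -1.25, -2.07 to -0.50). Both were thinly counted. Mmp9 was higher in iIRE at 25.8 CPM against 18.7 CPM in control (0.46, 0.12 to 0.80), but the top 1% of cells held 90.1% of its UMIs in iIRE and 98.6% in control, so the ratio rests largely on 10 iIRE and 11 control cells. Mmp19 stood at 36.6 CPM in iIRE and 25.3 CPM in control (0.53, 0.25 to 0.82) and was found in 15.3% and 12.3% of cells. Timp1, an inhibitor that inflammatory signals are known to induce, stood at 50.2 CPM in iIRE and 37.1 CPM in control (0.44, 0.20 to 0.68). These higher members were spread over more cells than Mmp9 was, with at most 28.6% of Mmp19 UMIs and 29.6% of Timp1 UMIs in the top 1% of cells. Timp2, by contrast, stood at 407 CPM in iIRE and 405 CPM in control (0.01, -0.07 to 0.08), and Mmp14 at 124 CPM and 131 CPM (-0.08, -0.22 to 0.06). Timp3 was read as background in this class, at 4.32 CPM in iIRE and 4.42 CPM in control, below the 16.3 CPM of T/NK-like cells over both libraries.

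**Figure D2:**
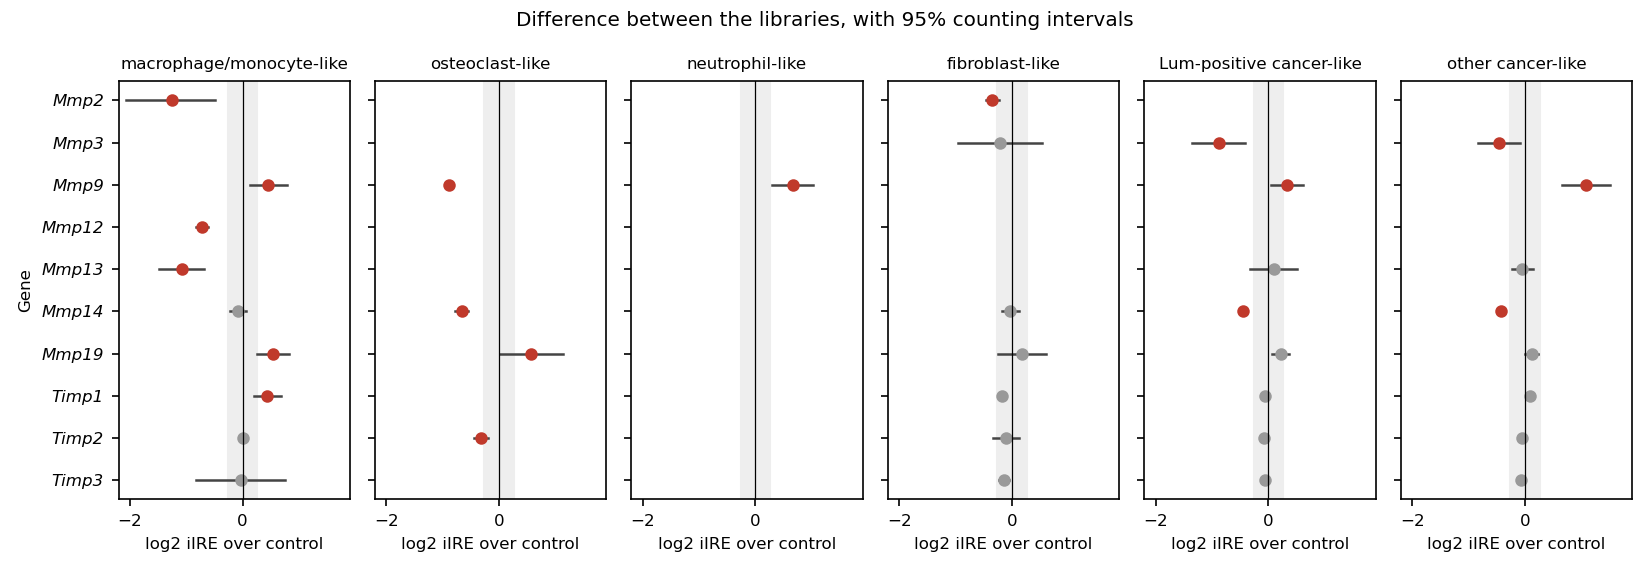
Log2 ratio of iIRE over control (horizontal axis) for each member with at least 50 UMIs, by class; lines are exact 95% counting intervals, the gray band spans levels within 1.2-fold, and red points lie outside it. Mmp9 lies left of 0 in osteoclast-like cells at -0.88 and right of it in neutrophil-like cells at 0.66, and Mmp14 lies left of the band in osteoclast-like and both kinds of cancer-like cells.

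The macrophage members came from different subsets. Of 13 subclusters, the Gpnmb lipid subcluster, marked by Gpnmb, Spp1, Fabp5, Lpl and Cd36, was the main source of Mmp12. Its 62 iIRE and 107 control cells had 2034 CPM (1880 to 2196) and 2298 CPM (2187 to 2413) of Mmp12, with the gene in 51.6% and 64.5% of the cells. The MHC class II subcluster followed, with 581 CPM in 93 iIRE cells and 486 CPM in 111 control cells (log2 ratio 0.26, 0.05 to 0.46). Within these leading subsets the libraries were thus closer than in the class as a whole, and in the second of them Mmp12 was the higher in iIRE. The Gpnmb lipid subcluster made up 6.32% of iIRE and 10.3% of control macrophage/monocyte-like cells. When the iIRE subclusters were weighted by the control shares, an alternative added after seeing the data, the iIRE level of Mmp12 was 291 CPM and its log2 ratio -0.12, under the 1.2-fold line. Mmp13 and Mmp2 remained lower in that setting, at -0.85 and -1.08, and Mmp9, Mmp19 and Timp1 remained higher, at 0.49, 0.49 and 0.57. Over the whole class, 4 of the 8 Gpnmb lipid markers were higher in iIRE and none was lower, where 16.7% of all genes compared were higher and 10.9% lower.

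Mmp13 was highest in the same subcluster as Mmp12. It reached 49.9 CPM in iIRE and 84.4 CPM in control cells of the Gpnmb lipid subcluster, from 16 and 59 UMIs. Mmp2 was found mainly in the C1q subcluster, marked by Apoe, Cx3cr1 and Ms4a7, with 14.3 CPM in iIRE and 27.7 CPM in control, and with a UMI in 7.18% and 13.4% of cells. Mmp19 reached its highest iIRE level in the Ly6c2 monocyte subcluster, at 89.0 CPM in 131 iIRE cells and 56.5 CPM in 84 control cells (0.66, -0.03 to 1.39). This subcluster, marked by Ly6c2, Plac8 and Chil3, made up 13.4% of iIRE and 8.08% of control cells of the class. Timp2 was at its highest in the Lyve1 resident subcluster, at 1087 CPM in iIRE and 1016 CPM in control, and stood at 42.4 CPM and 27.1 CPM in the monocytes. Mmp9 was concentrated in an unnamed subcluster, number 7, at 264 CPM in 73 iIRE cells and 155 CPM in 71 control cells, where it was found in 8.22% and 5.63% of cells. In the same subcluster Mmp12 had 50 UMIs in iIRE and 2 in control, whereas in subcluster 10 it had none in 34 iIRE cells and 56 in 24 control cells. In the Gpnmb lipid subcluster Mmp9 was lower in iIRE, unlike in the class, at 12.5 CPM against 65.8 CPM in control, from 4 and 46 UMIs (-2.40, -4.33 to -0.95). Mmp14 stood at 105 CPM in iIRE and 36.6 CPM in control cells of the Lyve1 resident subcluster (1.52, 0.73 to 2.36), and at 104 CPM and 160.4 CPM in the MHC class II subcluster (-0.62, -1.07 to -0.19). Timp2 was also lower in iIRE in the MHC class II subcluster, at 60.96 CPM against 98.02 CPM in control (-0.69, -1.27 to -0.12). In these small subclusters the sign of a ratio can rest on a few cells.

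**Figure D3:**
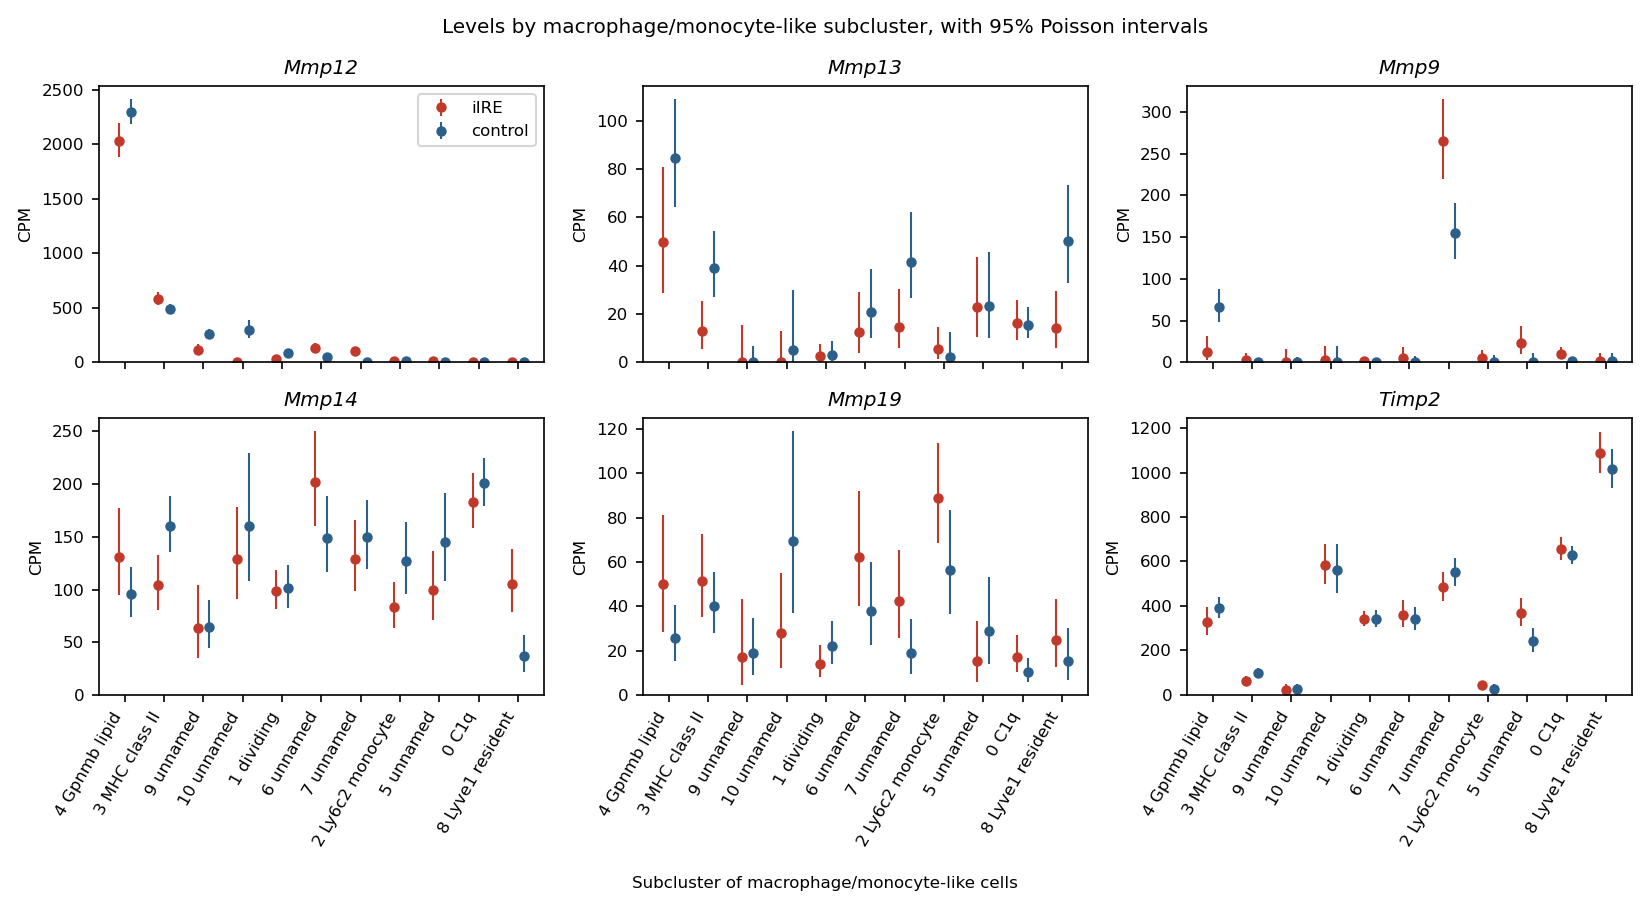
CPM of 6 members (panels) in 11 macrophage/monocyte-like subclusters (horizontal axis), iIRE in red left of control in blue, with exact 95% Poisson intervals; subclusters 11 and 12, with 35 and 13 cells, are not drawn. Mmp12 is highest in the Gpnmb lipid subcluster at 2034 CPM in iIRE and 2298 CPM in control, and Timp2 in the Lyve1 resident subcluster.

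Fibroblast-like cells were few, 72 in iIRE and 64 in control, but had the highest levels of Mmp2, Mmp3, Mmp14, Mmp19, Timp1 and Timp3 of all classes. Fibroblasts are known as the main makers of matrix and of both gelatinase A and its inhibitors. None of the 7 members compared was higher in iIRE past 1.2-fold and 1, Mmp2, was lower, where 23.8% of all 5352 genes compared in this class were higher and 23.6% were lower. The median log2 ratio was -0.13 for the members and 0.01 for all genes.

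Mmp2 stood at 1041 CPM (979 to 1106) in iIRE and 1323 CPM (1253 to 1397) in control, a log2 ratio of -0.35 (-0.46 to -0.23). The share of cells with Mmp2 did not follow this: it was 88.9% in iIRE and 79.7% in control, while the median cell held 8.02 and 13.7 UMIs per 10000. Mmp14 stood at 746 CPM in iIRE and 762 CPM in control (-0.03, -0.18 to 0.12). Timp1 stood at 2840 CPM in iIRE and 3223 CPM in control (-0.18, -0.26 to -0.11), and 1 control cell held 736 of the 3188 control UMIs. In the median cell Timp1 was instead the higher in iIRE, at 18.5 against 12.9 UMIs per 10000. Timp3, the inhibitor that binds to the matrix, stood at 1948 CPM in iIRE and 2137 CPM in control (-0.13, -0.22 to -0.05). Mmp11, a stromelysin known from tumor fibroblasts, differed more than any member, at 93.6 CPM in iIRE and 232.5 CPM in control (-1.31, -1.67 to -0.96). Transcripts of epithelial cancer markers in the same cells differed too, with a summed level of 81.8 CPM in iIRE and 433 CPM in control. All 6 markers compared were lower in iIRE, but unevenly. Msln stood at 8.87 CPM in iIRE and 108 CPM in control. Cdkn2a stood at 32.5 CPM and 44.5 CPM, with an interval that held 0 (-0.45, -1.15 to 0.23). The part of these transcripts in the values above was not tested.

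Cancer-like cells, 6814 in iIRE and 6827 in control, formed 10 clusters with high Cdkn2a and almost no Y-linked transcripts. Of the 8 members compared, 1 was higher in iIRE past 1.2-fold (Mmp9) and 2 were lower (Mmp3 and Mmp14), where 8.88% of all 14571 genes were higher and 6.68% were lower. The median log2 ratio was -0.04 for the members and 0.01 for all genes. The most deeply counted of these differences was that of Mmp14.

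Mmp14 stood at 225 CPM (223 to 228) in iIRE and 302 CPM (299 to 305) in control, with 29094 and 44568 UMIs and a log2 ratio of -0.42 (-0.44 to -0.40). After thinning to 2000 UMIs it was found in 33.9% of iIRE and 41.8% of control cancer-like cells, and the median cell held 1.61 and 2.23 UMIs per 10000. The ratio was below 0 in 8 of the 10 clusters, 7 of them past 1.2-fold. The exceptions were cluster 12, of shallow cells rich in ribosomal protein transcripts, at 0.20, and cluster 26, of 74 cells with interferon-induced genes, at 0.36. Mmp14 was higher in the Lum-positive cancer-like cells, clusters 4 and 8, than in the other cancer-like cells, but the difference between the libraries was alike in both. It stood at 414 CPM in iIRE and 563 CPM in control in the first (-0.44, -0.48 to -0.41) and at 170 CPM and 227 CPM in the second (-0.41, -0.44 to -0.39). In the Lum-positive cells, named for a collagen-binding proteoglycan usual in mesenchymal cells, the same members passed the line as in all cancer-like cells, 1 of 8 higher and 2 lower, where 8.82% of 12129 genes were higher and 8.4% were lower.

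Transcripts of the inhibitors, in contrast, differed little between the libraries in the cancer-like cells. Timp1 stood at 408 CPM in iIRE and 397 CPM in control, Timp2 at 570 CPM and 592 CPM, and Timp3 at 423 CPM and 445 CPM, with log2 ratios of 0.04, -0.05 and -0.07. Their counting intervals excluded 0, but all lay within the 1.2-fold line. By cluster they were less even. Timp1 was past the line in 3 of 10 clusters, 2 higher and 1 lower, and Timp3 likewise in 3, with log2 ratios from -1.25 to 0.30. The widest of these was in the 74 cells of cluster 26. The plot of the 10 clusters shows that Timp levels separated the clusters far more than they separated the libraries.

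**Figure D4:**
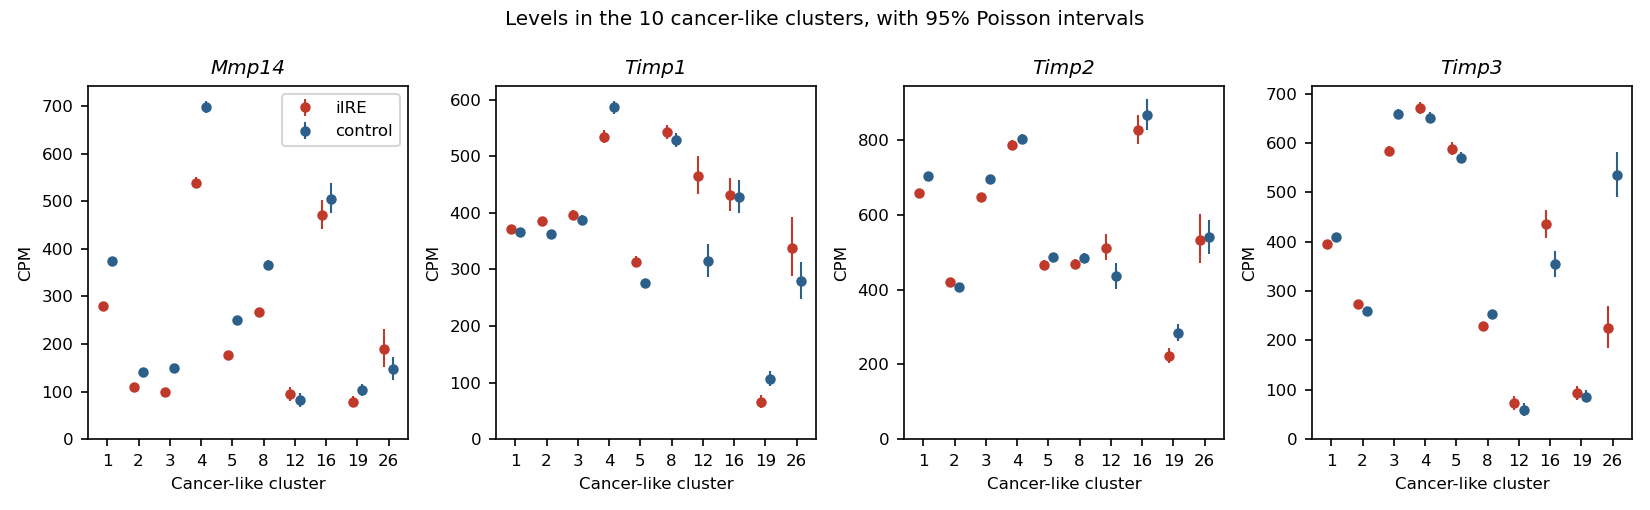
CPM of Mmp14, Timp1, Timp2 and Timp3 (panels) in the 10 cancer-like clusters (horizontal axis), iIRE in red left of control in blue, with exact 95% Poisson intervals. Mmp14 is lower in iIRE in 8 of 10 clusters, whereas the inhibitors differ mostly between clusters.

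The secreted enzymes were rare in cancer-like cells. Mmp3, a stromelysin, stood at 1.24 CPM in iIRE and 1.904 CPM in control (-0.62, -0.91 to -0.34), but it was found in 0.704% and 0.791% of cells and a single control cell held 70 of the 281 UMIs. Mmp9 stood at 2.74 CPM in iIRE and 1.83 CPM in control (0.58, 0.35 to 0.82). This difference was most marked in cluster 5, led by hypoxia genes such as Adm, Ndrg1 and Bnip3. Mmp9 had 77 UMIs there in iIRE and 21 in control (6.38 and 1.15 CPM, log2 ratio 2.48, 1.77 to 3.25). Only 2.62% of 841 iIRE and 1.52% of 1051 control cells of that cluster had a UMI of Mmp9, so the ratio rests on few cells. Over all cancer-like cells the share with Mmp9, given above, was slightly lower in iIRE. Mmp13 stood at 4.23 CPM in iIRE and 4.29 CPM in control cancer-like cells, and Mmp19 at 14.8 CPM and 13.3 CPM. Outside the members, Mmp10, another stromelysin, stood at 0.58 CPM in iIRE and 0.88 CPM in control (-0.60, -1.03 to -0.18), and Mmp28 at 10.9 CPM and 11.1 CPM.

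Over all classes and both libraries, the well counted members were placed in order of their levels. Mmp14 ran from fibroblast-like cells (754 CPM) over Lum-positive cancer-like (493), osteoclast-like (445), endothelial-like (319) and other cancer-like (201) to macrophage/monocyte-like cells (128), and the interval between each pair of neighbors excluded 0 for these pooled levels. By library this order did not hold throughout: Lum-positive cancer-like cells stood above osteoclast-like cells in iIRE (414 and 358 CPM) but level with them in control (563 and 566 CPM). In iIRE the osteoclast-like and endothelial-like cells (335 CPM) also had overlapping intervals. Timp2 ran from Lum-positive (658 CPM) and other cancer-like cells (560) over macrophage/monocyte-like (406) and osteoclast-like (386) to fibroblast-like cells (334), of which macrophage/monocyte-like and osteoclast-like cells barely differed (0.07, 0.00 to 0.15). The order of these classes was opposite in the libraries, with macrophage/monocyte-like and osteoclast-like cells at 407 and 349 CPM in iIRE and at 405 and 438 CPM in control. Timp1 ran from fibroblast-like (3029 CPM) over Lum-positive (552) and other cancer-like (360) to endothelial-like cells (69.98) and macrophage/monocyte-like cells (43.1). Mmp19 ran from fibroblast-like (94.8 CPM) over macrophage/monocyte-like (30.5) to Lum-positive cancer-like (23.7) and osteoclast-like cells (22.7), which did not differ beyond counting error (0.07, -0.20 to 0.34). Timp3 was highest in fibroblast-like cells (2041 CPM), followed by Lum-positive (479) and other cancer-like cells (422) and by endothelial-like cells (198). In the 18 iIRE and 25 control endothelial-like cells Timp3 stood at 248 CPM and 170 CPM (0.55, -0.07 to 1.16), an interval that held 0. Among other family members, Mmp25 stood at 180 CPM in dendritic-like cells, Mmp23 at 237 CPM in fibroblast-like cells and Mmp15 at 98.8 CPM in endothelial-like cells.

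Summed transcripts of the 7 enzymes were set against those of the 3 inhibitors in each class. Osteoclast-like cells had 7.38 Mmp UMIs per Timp UMI in iIRE and 10.7 in control, and neutrophil-like cells had 7.59 in iIRE and 4.04 in control, mostly through Mmp9, which made up 85.1% and 87.6% of the Mmp UMIs in osteoclast-like cells and 98.2% and 98.1% in neutrophil-like cells. Macrophage/monocyte-like cells stood near balance, at 0.855 (0.810 to 0.902) in iIRE and 1.18 (1.12 to 1.23) in control. In fibroblast-like cells the inhibitors prevailed, with 0.376 in iIRE and 0.387 in control, and more so in cancer-like cells, with 0.177 in iIRE and 0.226 in control. The ratio was lower in iIRE in 6 of the 7 classes drawn and higher in neutrophil-like cells, although the intervals of the libraries overlapped in fibroblast-like, endothelial-like and neutrophil-like cells. It compares RNA counts and says nothing of protein or of enzyme activity.

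**Figure D5:**
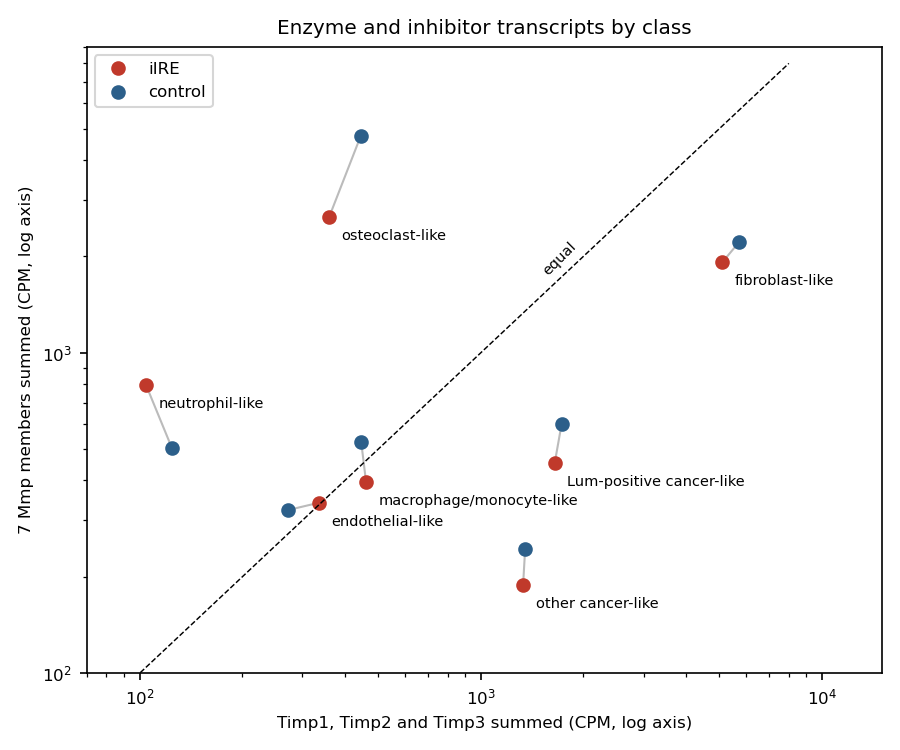
Summed CPM of the 7 Mmps (vertical log axis) against summed CPM of the 3 Timps (horizontal log axis) by class, iIRE in red joined to control in blue; the dashed line marks equal sums. Osteoclast-like and neutrophil-like cells lie above the line and fibroblast-like and cancer-like cells below it.

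Single cells also combined members. Mmp14 and Timp2, whose proteins act together on proMmp2, were compared cell by cell after thinning to 2000 UMIs. Mmp14 was found more often in cells with Timp2 than in cells without it, by a margin that lay beyond counting error in cancer-like cells but not in osteoclast-like or macrophage/monocyte-like cells. In osteoclast-like cells Mmp14 was found in 45.5% of iIRE cells with Timp2 and 35.6% of those without, and in 67.4% and 54.0% of control cells, with intervals that overlapped. In other cancer-like cells the shares were 31.5% and 23.0% in iIRE and 38.0% and 30.7% in control. In macrophage/monocyte-like cells they were 19.95% and 17.1% in iIRE and 21.7% and 19.9% in control, with intervals that overlapped. Mmp9 and Mmp14 were joined more closely in osteoclast-like cells, where Mmp9 was found in 60.8% of iIRE cells with Mmp14 and 30.3% of those without, and in 69.6% and 33.3% of control cells. Macrophages with Timp2 had Mmp12 less often than those without, at 3.89% and 11.5% in iIRE and 10.2% and 14.5% in control, and the intervals overlapped in control. These shares describe cells of 1 library each, and cells of a class share its subclusters.

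The genes whose levels over 31 clusters were most like those of each member were named by Pearson's r, as a description across clusters of the same libraries. Mmp9 was nearest to Rufy4 (r = 0.90), Atp6v0d2 (0.88) and Stard7 (0.87), the second a proton pump subunit of osteoclasts. Mmp12 was nearest to Adap2 (0.96), Kcnk13 (0.95) and Tlr7 (0.94), and Mmp13 to Cbr2 (0.67), Ccl12 (0.64) and P2rx4 (0.63). Mmp2 was nearest to Pdzrn3, Eln and Sfrp1 (0.97 each), Mmp3 to Ror1, Lama2 and Magi2 (0.87 each), Mmp14 to Nav1, Ext2 (0.93 each) and Slc39a1 (0.92), and Mmp19 to Htra3 (0.88), Lrp1 and Tcf4 (0.84 each). Of the inhibitors, Timp1 was nearest to Efemp2 (0.95), Twist1 and Serpinh1 (0.94 each), Timp2 to Ubap2l, Anxa1 and Emp1 (0.93 each), and Timp3 to Ncam1 (0.98), Prss23 (0.97) and Hspg2 (0.96). Eln encodes elastin and Serpinh1 a collagen chaperone.

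Genes that act with the family were counted by list. AP-1, ETS and Runx factors, known at Mmp promoters, were counted together. In macrophage/monocyte-like cells 6 of 11 compared were lower in iIRE and none was higher. In osteoclast-like cells 6 of 8 were lower, among them Runx1, and none was higher. In cancer-like cells none of these 11 factors passed the line. Their median log2 ratio was -0.33 in macrophage/monocyte-like and -0.42 in osteoclast-like cells, against 0.04 for all genes compared in either class. In macrophage/monocyte-like cells Fos stood at 2024 CPM in iIRE and 2616 CPM in control (-0.37), and Jun at 744 CPM and 1024 CPM (-0.46). In osteoclast-like cells Fos stood at 1545 CPM and 2239 CPM (-0.54) and Jun at 471 CPM and 828 CPM (-0.82). In fibroblast-like cells 4 of 10 were lower and 2 higher. Of all genes compared in macrophage/monocyte-like cells, 10.9% were lower and 16.7% higher, and in osteoclast-like cells 17.1% and 23.8%. In fibroblast-like cells these shares were 23.6% and 23.8%, and in cancer-like cells 6.68% and 8.88%. Beside these shares, 2 of 10 activators and surface partners compared were higher (Plat, 0.95, and Sdc1, 0.30) and 2 lower (Furin and Cav1) in macrophage/monocyte-like cells. In osteoclast-like cells 1 of 10 was higher (Lrp1, 0.39) and 4 were lower (Furin, Itgav, Itgb3 and Sdc1). Furin, which cuts proMmp14, was lower in macrophage/monocyte-like (-0.29) and osteoclast-like cells (-0.28), and Itgb3, an integrin chain of osteoclasts, was lower in osteoclast-like cells (-1.08).

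Among other inhibitors and carriers, Slpi, an inhibitor of neutrophil elastase, was lower in iIRE macrophage/monocyte-like cells, at 100.3 CPM in iIRE and 189 CPM in control (-0.91), as was Serpinb2 (-0.74). Both are among the leading genes of subcluster 11, which held 11 iIRE and 24 control cells (1.12% and 2.31% of the class), and its part in these ratios was not tested. Higher were Thbs1 (0.36) and Lcn2, which binds Mmp9, at 10.1 CPM in iIRE and 1.47 CPM in control (2.77, 1.84 to 3.85). Over both libraries Lcn2 stood at 5.39 CPM in this class, 947 CPM in neutrophil-like and 405 CPM in acinar-like cells. The part of those cells in the ratio was not tested. In fibroblast-like cells Slpi stood at 411 CPM in iIRE and 2038 CPM in control (-2.31), and Adam12, a membrane protease of activated fibroblasts, at 183 CPM and 62.7 CPM (1.55, 1.13 to 1.99). The matrix substrates in these cells were split, with 4 of 10 higher, among them Col1a1 (0.27) and Col3a1 (0.33), and 4 lower, among them Eln (-0.92) and Col4a1 (-0.80). Of all genes compared in fibroblast-like cells, 23.8% were higher and 23.6% lower. In cancer-like cells few listed genes passed the line: Thbs1 (-0.29), Spock2 (-0.66), Adamts4 (-0.36), Adamts5 (-0.27) and Col1a2 (-0.41) were lower and none was higher, and no gene of the activators passed it. Spock2 and Adamts5 were below 2 CPM in both libraries. Of all genes compared in cancer-like cells, 8.88% were higher and 6.68% lower.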

How the data were processed

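Whole tumors were profiled with 5′ single-cell RNA sequencing (10x Genomics), and the authors deposited raw UMI counts per gene and cell for both libraries in one matrix, made with Cell Ranger 7.0.1 per the file headers and with mm10 per the submitters' processing notes. Barcode endings gave the library. Cells were kept with at least 200 genes and 1000 UMIs, at most 5% mitochondrial and 5% hemoglobin counts and a usual number of genes for their depth. Doublets were scored by similarity to simulated pairs, and 15.1% of iIRE and 14.2% of control cells were removed. Cells were clustered (scanpy 1.11.5, leidenalg 0.10.2, scikit-learn 1.9.0; 2000 variable genes without 65 Mmp, Timp and related genes, 30 components, 20 neighbors, resolution 1.0). A host class needed at least 3 of its markers among the 50 leading genes of a cluster, and Cdkn2a under 10% of its level in the highest cluster. Cancer-like clusters needed at least 3 epithelial cancer markers, from a list that includes Cdkn2a. Each marker had to be at least 2-fold over the host classes and present in 20% of the cells. Their Y-linked transcripts had to lie under 1% of those in the highest cluster. Lum-positive ones had at least 100 CPM of Lum.

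Counts were summed per class and library. Intervals were exact (scipy 1.17.1): Poisson for CPM, Clopper-Pearson for shares and conditional binomial for ratios. With 1 library per group there are no replicates and no test. The interval method was tested on simulated data. Members and gene lists were chosen with earlier results of these data known. Genes open to naming were the members, family genes with at least 50 UMIs in a class, the 4 most abundant genes of each partner list and any past 1.2-fold, and the 3 genes most like each member, and not all of them are printed. Mmp1b and Mmp8 in neutrophil-like cells were named after their values were seen. Alternatives covered doublet and mitochondrial filters, cluster resolution, the minimum count, means over cells and clustering with the family genes.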

Additional observations from a re-analysis of the deposited data

Results flagged for a closer look

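The difference in Mmp9 between iIRE and control ran in opposite directions in different classes. Its log2 ratio was -0.88 in osteoclast-like cells, and 0.46, 0.66 and 0.33 in macrophage/monocyte-like, neutrophil-like and Lum-positive cancer-like cells. The macrophage/monocyte-like ratio rests largely on a few cells, and in the Gpnmb lipid subcluster Mmp9 was lower in iIRE. In the Lum-positive cells the share of cells with Mmp9 did not follow the ratio. It was 6.17% in iIRE and 7.58% in control in cluster 4, and 5.48% and 5.79% in cluster 8. Over both libraries, T/NK-like and Lum-positive cells did not differ in Mmp9 beyond counting error (0.06, -2.23 to 1.61), with 3 UMIs in T/NK-like cells. Whether the Mmp9 of Lum-positive cells is background was not tested. With 1 library per group the difference between the classes was not tested.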

How the results depend on the processing

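No paired analysis was possible because each group had 1 library. Of the 36 log2 ratios recomputed, none past 1.2-fold changed direction under any alternative run, and 289 of 324 recomputed values stayed within the counting interval of the value reported. The ratio of Mmp9 in macrophage/monocyte-like cells ranged from 0.32 to 0.68, that of Mmp12 from -0.93 to -0.12 and that of Timp1 from 0.07 to 0.75. In cancer-like cells the ratio of Mmp14 ranged from -0.43 to -0.41 and that of Mmp3 from -0.83 to -0.08. In osteoclast-like cells the ratio of Mmp14 ranged from -0.70 to -0.53. The ratio of Mmp9 in osteoclast-like cells ranged from -0.93 to -0.57, which reached outside its counting interval of -0.93 to -0.84. That of Mmp2 in macrophage/monocyte-like cells ranged from -1.34 to -0.42 and that of Mmp3 in Lum-positive cells from -0.98 to -0.19. That of Mmp9 in cancer-like cells ranged from 0.11 to 0.65. The values nearest to 0 of these 3 and of Mmp3 in cancer-like cells came with 10 CPM added. The ratios of neutrophil-like Mmp9, of single subclusters and cancer-like clusters and of genes outside the members were not recomputed. The number of members past 1.2-fold, 4 in osteoclast-like cells, was 9 with no minimum count. In cancer-like cells it was 3, and it was 5 with a minimum of 20 UMIs or with none and 1 with 10 CPM added to each level, which also left 1 of 3 in Lum-positive cells. In fibroblast-like cells it was 1, and 2 with no minimum or with means over cells. Mmp UMIs per Timp UMI in macrophage/monocyte-like cells were 0.669 in iIRE and 0.971 in control with 10% of cells removed as doublets, 0.740 and 1.01 with a mitochondrial limit of 10%, and 1.11 in control with no doublet removal. They were 11.4 and 14.1 in osteoclast-like cells at resolution 2.0, and 0.407 and 0.411 in fibroblast-like cells with the wider mitochondrial limit. The share with Mmp14 among cells with Timp2 was 65.2% in iIRE and 78.3% in control osteoclast-like cells at resolution 2.0, and 17.7% in control macrophage/monocyte-like cells with no doublet removal. In Lum-positive cells it was 64.7% and 73.5% with no doublet removal, 61.9% and 72.9% with family genes in the clustering, and 70.1% in control at resolution 0.5. Of the 30 genes most like a member, 5 were shared with no doublet removal, 11 with 10% removed, 14 with the wider mitochondrial limit, 14 and 13 at resolutions 0.5 and 2.0, and 16 with family genes in the clustering, so these names depend on the processing. With no doublet removal no osteoclast-like, neutrophil-like or fibroblast-like class was named, and with 10% removed no fibroblast-like class. The causes were not tested. Members with few UMIs are limited by depth, and neutrophil-like and fibroblast-like cells by their number. The weighting of macrophage subclusters by control shares, which gave the -0.12 of Mmp12, was chosen after seeing the data.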

Other observations

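Among Lum-positive cancer-like cells thinned to 2000 UMIs, 51.7% of iIRE and 61.5% of control cells had a UMI of at least 1 enzyme and of at least 1 inhibitor. The same share was 31.8% in iIRE and 47.0% in control osteoclast-like cells, 14.4% and 16.7% in macrophage/monocyte-like cells, and 91.7% and 79.7% in fibroblast-like cells. In fibroblast-like cells it was thus the higher in iIRE.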
